A study of Mus musculus with 24 samples.

Results

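Notch pathway genes were followed through 5 days of optic vesicle (OV) organoid differentiation from mouse embryonic stem cells. The members are 33 genes, taken as the entries of the deposited expression table whose gene symbol is Notch1, Notch2, Notch3, Notch4, Dll1, Dll3, Dll4, Jag1, Jag2, Dlk1, Hes1, Hes3, Hes5, Hes6, Hes7, Hey1, Hey2, Heyl, Lfng, Mfng, Rfng, Rbpj, Maml1, Maml2, Maml3, Numb, Numbl, Nrarp, Mib1, Dtx1, Adam10, Psen2 or Ncstn. They make up 34 of the 49705 entries of the table, because Dlk1 is listed once on chromosome 12 and once more on a patch sequence with identical values in every library. The chromosome 12 entry was used, and it covers only that copy. All 33 members passed the filter on low values, a normalized count of at least 10 in at least 3 libraries, as did 21005 entries in all. Dll4 reached 10 in 11 libraries, Heyl in 12 and Hes5 in 22, and the other 30 members reached it in all 24.

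The 24 RNA-seq libraries form 8 groups of 3 biological replicates, all made from the line Rx-GFP K/I EB5, in which a GFP reporter sits in the locus of the eye-field gene Rax. Day 0 cells were untreated and carry the label ESC, and days 1, 2 and 3 were collected from whole dissociated organoids as live single cells. On days 4 and 5 live cells were also sorted into a GFP-positive and a GFP-negative gate, and the GFP-negative gate still holds cells with low GFP that may be starting to express Rax. Each sample is described as a pool of 24 organoids seeded with 4500 cells. Matrigel was added to 2% on day 1, so the day 0 cells had none and comparisons with day 0 also differ in this. A single reporter line was used, so that the replicates measure the spread between cultures of that line. The labels name medium with 1.5% knockout serum replacement, whereas the study names that medium for its knockout organoids and a chemically defined medium for its initial ones.

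Notch receptors are transmembrane proteins that are activated when a ligand of the Delta or Jagged family on a neighbouring cell is pulled away by endocytosis. ADAM10 and then the gamma-secretase complex cut the receptor, and the freed intracellular part joins RBPJ and a Mastermind protein on DNA and turns on genes of the Hes and Hey families, which repress proneural genes and the Delta ligands. In the developing neural tube and retina this circuit keeps neighbouring progenitors from differentiating all at once, and in presomitic mesoderm the same genes oscillate during segmentation.

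Values are normalized counts, and changes are log2-fold-changes of the normalized count plus 1 from a fit over all 24 libraries. A gene was called in a comparison when its adjusted p was under 0.001 and its absolute log2-fold-change above 1.5, the thresholds of the study, and "rose", "fell", "higher" and "lower" are used where the adjusted p was under 0.05. The study applied its thresholds to shrunken DESeq2 fold changes and these are not shrunken, so the 2 sets of calls rest on different measures. Library totals lay between 39849111 and 51587535 normalized counts, and the value of a single read, read from the spacing of the lowest values, between 0.79 and 1.39. One library stood apart: the rank correlation of day 0 replicate 1 with its replicates was 0.953 and 0.954, against 0.979 to 0.993 for the other 22 replicate pairs, and its summed level of 5 mural cell markers was 9632 against 466 and 548 in the other day 0 libraries. Acta2 (5105) and Tagln (4342), which encode contractile proteins, made up most of it, and Pdgfrb, Rgs5 and Cspg4 were at 161, 12.1 and 11.4, each below at least 1 of the other day 0 libraries. It touches every comparison with day 0 directly and the others through the spread that the fit shares, so values without it are given beside many of the results it changes. The eye-field markers Rax, Pax6, Lhx2, Six3 and Six6 summed to 45893 to 47745 in the GFP-positive and 8869 to 10833 in the GFP-negative libraries of day 4, and 7 pluripotency markers summed to 142519 to 182612 on day 0 and 36946 to 48020 on day 3. In bulk samples such as these, fewer cells that express a gene and less RNA per cell cannot be told apart.

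From day 0 to day 3, when cells were not yet separated by GFP, the pathway lost Rbpj, Notch4 and Hes3 transcripts and gained Maml3, Hes5, Hey1 and Dtx1. These 7 of 33 members were called, 4 upwards and 3 downwards, where 12.0% of all genes were called. At an adjusted p under 0.05, 13 members rose and 5 fell, where 43.6% of all genes passed. The median log2-fold-change of the members was 0.40 and that of all genes -0.03. Without day 0 replicate 1, 8 members were called (12.4% of all genes), with Hes7 added. A fit of only the day 0 and day 3 libraries, with fewer samples behind the spread, called 2, Maml3 and Dtx1, and so none of Rbpj, Notch4, Hes3, Hes5 and Hey1. Under quantile normalization 7 members were called, 5 upwards and 2 downwards. The share of all genes called is not given for either of these fits, and the 12.0% belongs to the fit over all libraries.

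In the step from day 3 to day 4, when Rax-GFP appears, 3 of 6 ligands, 2 of 3 Fringe genes and 4 of 8 Hes and Hey genes rose in GFP-positive cells, and 4, 2 and 5 of them in GFP-negative cells. Hes6 fell in the former and Jag2 in the latter. Lfng, Dll1, Jag1 and Hes3 were called upwards in both gates, and Hes1 and Hes5 in the GFP-positive gate. In GFP-positive cells 6 members were called upwards and 1, Dtx1, downwards, where 10.7% of all genes were called. In GFP-negative cells 4 were called, all upwards, where 2.88% of all genes were called. At an adjusted p under 0.05, 16 members rose and 2 fell in GFP-positive cells, where 37.9% of all genes passed, and 16 rose and 2 fell in GFP-negative cells, where 18.5% passed. The median log2-fold-change of the members was 0.68 and 0.50 in the 2 gates, and that of all genes -0.01 and -0.02. Both comparisons use the same 3 day 3 libraries, so their values are set side by side below and were not correlated. Leaving out day 0 replicate 1, which is in neither comparison, brought the count at an adjusted p under 0.05 to 23 in each gate (46.2% and 26.4% of all genes) and added Hes5 to the calls in GFP-negative cells.

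Between the gates, the GFP-positive cells had more Hes1 on both days and less Dll3 and Hes3. On day 4 only Dll3 was called, as lower in GFP-positive cells, where 3.96% of all genes were called. At an adjusted p under 0.05, 2 members were higher and 4 lower, where 15.7% of all genes passed. On day 5 Hes3 and Hey2 were called, both lower in GFP-positive cells, where 5.01% of all genes were called. At an adjusted p under 0.05, 2 members were higher and 9 lower on that day, where 16.0% of all genes passed. The median difference of the members was 0.07 on day 4 and -0.20 on day 5, against 0.01 and -0.00 for all genes. Quantile normalization moved all genes by a median of 0.116 in the gate comparison of day 4 and 0.181 in that of day 5 towards the GFP-positive gate. On day 5 it left Hes3 as the only call. Without day 0 replicate 1, 9 and 16 members passed an adjusted p of 0.05 on the 2 days (22.3% and 22.6% of all genes).

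From day 4 to day 5 few members were called in either gate. In GFP-positive cells Hes3 was the only member called, downwards, where 1.49% of all genes were called, and 3 members rose and 3 fell at an adjusted p under 0.05, where 9.80% passed. In GFP-negative cells Dlk1 was called upwards and Dtx1 downwards, where 1.27% of all genes were called, and 8 members rose and 2 fell at an adjusted p under 0.05, where 10.2% passed. The member median was -0.07 in the former and 0.21 in the latter, against 0 and 0.01 for all genes. The change of the gate difference itself, tested as an interaction, was called in 0 members by limma, where 0.109% of all genes were called. At an unadjusted p under 0.05 there were 9 members, and a fit of only the 4 sorted groups called 1, Hes5. For neither of these is the share of all genes given, so they are not read against a background. In the fit over all libraries the change passed an adjusted p under 0.05 in 3 members, Dll1, Jag1 and Hes3, all towards lower relative levels in GFP-positive cells, where 1.10% of all genes passed. Without day 0 replicate 1 these counts were 10 from day 4 to day 5 in GFP-positive cells, 11 in GFP-negative cells and 5 for the change of the gate difference (15.3%, 17.9% and 3.11% of all genes), the last with Hes5 and Hey2 added. Members that passed only without that library, and whose values without it are not given below, were Mib1 and Numbl from day 0 to day 3, Ncstn, Numb and Psen2 from day 3 to GFP-positive cells of day 4, Hes6, Mib1 and Numb from day 3 to GFP-negative cells, and Maml3 and Numb between the gates of day 5. From day 4 to day 5 they were Dll1, Dll3, Rfng and Adam10 in GFP-positive cells and Rfng in GFP-negative cells. Of the 33 members, 14 were called in at least 1 of these 8 comparisons, where 21.2% of all genes were, and 5 (Notch1, Dll4, Heyl, Numbl and Ncstn) passed an adjusted p of 0.05 in none in the fit over all libraries.

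**Figure D1:**
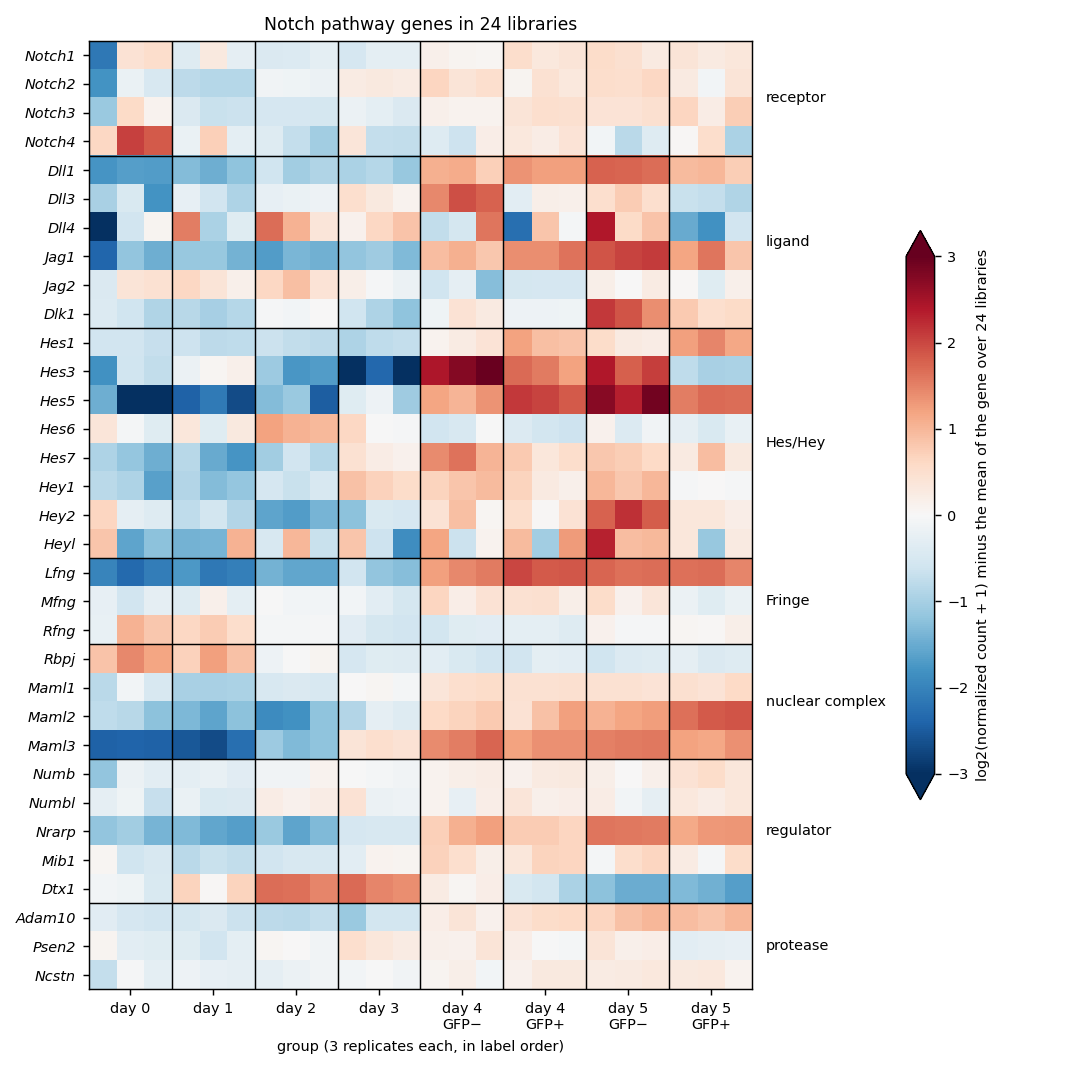
Heat map of the 33 Notch pathway genes (rows, by role) in 24 libraries (columns, 3 replicates in each of 8 groups). Colour gives log2(normalized count + 1) minus the mean of the gene over all libraries, with the scale ending at -3 and 3. Dll1, Jag1, Lfng, Hes1 and Hes3 turn red at day 4, Maml3 turns from blue to red by day 3, and the first day 0 column differs from its neighbours in Notch1, Notch2 and Notch3.

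Among the 4 receptors, Notch1, Notch2 and Notch3 were present throughout, and Notch4, known from endothelium, fell early. Per kilobase of exon, which allows levels of different genes to be compared, Notch3 was at 496 on day 3, Notch2 at 315, Notch1 at 155 and Notch4 at 27.6. In day 5 GFP-positive cells the order was the same for Notch3 (888 per kilobase), Notch2 (303), Notch1 (251) and Notch4 (33.1). Notch3 was the most abundant receptor transcript per length in both groups.

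Notch4 had 412, 1108 and 966 normalized counts on day 0. It stood at 232, 443 and 218 on day 1 and at 204, 164 and 129 on day 2. Day 3 libraries had 343, 163 and 161. All day 3 libraries were below all day 0 libraries, and the fall was 1.87 ± 0.40 (SE) on the log2 scale (adjusted p = 0.000616). The call was lost without day 0 replicate 2, day 0 replicate 3, day 3 replicate 2 or day 3 replicate 3, with changes from -1.70 to -1.60 and adjusted p values of 0.0044 to 0.00548. The 8 endothelial markers summed to 2528 to 5336 on day 0 and 844 to 1007 on day 3, with 7 of them at a mean of at least 10 on both days and none at 0 in every library of a group. Pecam1 made up most of both sums, with means of 3232 and 591. Kdr was at 141 and 135, Emcn at 0.549 and 0.796, and the other markers had smaller means on day 3. The part of these markers in the fall of Notch4 was not tested. In the sorted cells Notch4 lay between 139 and 385, with the gates at 206, 173 and 306 (GFP-negative) and 331, 313 and 356 (GFP-positive) on day 4, and at 251, 151 and 205 against 276, 385 and 139 on day 5. None of these later differences passed the test.

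For the other receptors, day 0 replicate 1 lay well below its replicates. Notch1 had 642 normalized counts in day 0 replicate 1 and 3818 and 4078 in its replicates, Notch2 had 822 against 2458 and 2035, and Notch3 had 2261 against 7307 and 5272. With that library, Notch1 changed by 0.03 ± 0.41 (SE) from day 0 to day 3 and Notch3 by -0.15 (adjusted p = 0.963 and 0.668). Without it, Notch1 fell by 0.84 (adjusted p = 3.41e-05) and Notch3 by 0.63 (adjusted p = 0.000433). Notch2 rose in both fits, by 1.08 (adjusted p = 0.000986) with the library and by 0.60 (adjusted p = 0.000355) without it. The near-zero change of Notch1 also turned below 0 without day 3 replicate 2 or 3 (-0.00555 and -0.00212), and that of Notch3 turned to 0.21 without day 0 replicate 2 (adjusted p = 0.459).

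After day 3, Notch1 had 2005 to 2309 normalized counts on day 3, 2927 to 3135 in day 4 GFP-negative and 3509 to 4093 in day 4 GFP-positive libraries, so that the 3 groups did not overlap. The difference of GFP-positive cells from day 3 was 0.77 (95% interval -0.07 to 1.62, adjusted p = 0.149), and without day 0 replicate 1 the same difference had an adjusted p of 2.69e-05. In GFP-negative cells the difference was 0.46 (adjusted p = 0.517, and 0.00826 without that library). Notch3 went from 3665 to 4365 on day 3 to 6452 to 6930 in GFP-positive cells, a rise of 0.76 (adjusted p = 0.0195), and to 5258 to 5501 in GFP-negative cells, a change of 0.42 (adjusted p = 0.286). Without day 3 replicate 3 or GFP-positive replicate 2 or 3 of day 4, the rise of Notch3 was 0.69 to 0.74 with adjusted p values of 0.0525 to 0.0648, and without day 0 replicate 1 the adjusted p was 1.94e-05 for GFP-positive and 0.0112 for GFP-negative cells. The gate difference of Notch3 on day 4 was 0.34 (adjusted p = 0.449, and 0.0437 without day 0 replicate 1). Notch2 lay between 2676 and 4446 in the sorted libraries. Its gates did not overlap on day 5, with 4058 to 4404 in GFP-negative and 2676 to 3698 in GFP-positive libraries, and the difference was -0.37 (adjusted p = 0.38, and 0.0185 without day 0 replicate 1).

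The ligands Dll1 and Jag1, which activate Notch receptors on adjacent cells, were switched up together between day 3 and day 4, whereas Dll3, a Delta protein that is known to act inside the cell as an inhibitor, was a gene of the GFP-negative gate. Per kilobase of exon, Jag1 was the highest of the 6 in day 4 GFP-positive cells (556), followed by Dll1 (363), Dll3 (145), Jag2 (111), Dlk1 (22.3) and Dll4 (2.17).

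Dll1 (chromosome 17, 15367354 to 15376872, minus strand, mm10) had 187 to 201 normalized counts on day 0, 259.8, 230.2 and 276 on day 1, 417, 309 and 338 on day 2, and 326, 351 and 288 on day 3. It had 1341, 1377 and 1037 in day 4 GFP-negative and 1609, 1488 and 1491 in day 4 GFP-positive libraries. By day 5 the gates stood at 2179, 2146 and 2025 (GFP-negative) and 1229, 1277 and 1056 (GFP-positive). Every sorted library was above every library of days 0 to 3, the GFP-positive libraries lay above the GFP-negative ones on day 4, and on day 5 every GFP-negative library was above every GFP-positive one. Dll1 rose by 0.71 ± 0.13 from day 0 to day 3 (SE, adjusted p = 0.000147), and then by 2.25 ± 0.13 in GFP-positive (adjusted p = 1.62e-11) and 1.95 ± 0.13 in GFP-negative cells (adjusted p = 1.21e-09). The gate difference was 0.30 on day 4 and -0.84 on day 5 (adjusted p = 0.144 and 6.19e-05), and the change between them was -1.14 ± 0.18 (adjusted p = 0.00206). From day 4 to day 5 Dll1 rose by 0.77 in GFP-negative cells (adjusted p = 0.000433) and changed by -0.37 in GFP-positive cells (adjusted p = 0.0851), where it passed without day 0 replicate 1. Exons of Dll1 share 20.5% of their bases with A930024N18Rik on the opposite strand, and the strand setting of the counting is not given in the sources used here.

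Jag1 (chromosome 2, 137081456 to 137116644, minus strand) had 222, 512 and 419 normalized counts on day 0, 526, 525 and 439 on day 1, 366, 448 and 425 on day 2, and 510.3, 552 and 464 on day 3. On day 4 it had 2232, 2448 and 2028 in GFP-negative and 3066, 3066 and 3587 in GFP-positive libraries. Day 5 GFP-negative libraries had 4294, 4719.6 and 5009.6, and GFP-positive libraries 2642, 3550.3 and 2072. The gates did not overlap on either day, with the GFP-positive cells above on day 4 and below on day 5. Jag1 rose by 2.67 ± 0.22 in GFP-positive (SE, adjusted p = 3.08e-09) and by 2.13 ± 0.22 in GFP-negative cells (adjusted p = 5.11e-07), and went on rising in GFP-negative cells by 1.06 to day 5 (adjusted p = 0.00253).

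The gate difference of Jag1 was 0.53 on day 4 (adjusted p = 0.114, and 0.0117 without day 0 replicate 1) and -0.79 on day 5 (adjusted p = 0.0137). The latter was lost without GFP-negative replicate 3 or GFP-positive replicate 3 of day 5 (-0.74 to -0.61, adjusted p 0.0569 to 0.0996). The interaction for Jag1 was -1.33 ± 0.31 (SE, adjusted p = 0.0342, and 0.000857 without day 0 replicate 1). Leaving out any 1 of the sorted libraries other than GFP-positive replicate 2 of day 5 gave -1.40 to -1.14 with adjusted p values of 0.0539 to 0.114.

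Dll3 (chromosome 7, 28293553 to 28302238, minus strand) had 209, 295 and 116 normalized counts on day 0, 345, 276 and 214 on day 1, 343, 355 and 368 on day 2, and 582, 504 and 440.4 on day 3. In the GFP-negative gate it had 1116, 1569 and 1402 on day 4 and 585, 697 and 583 on day 5. GFP-positive libraries had 327, 462 and 453 on day 4 and 217 to 256 on day 5. The GFP-negative libraries of day 4 were the highest of all groups, and the gates did not overlap on either day. Dll3 rose by 1.38 ± 0.24 to day 3 (SE, adjusted p = 8.65e-05) and by 1.41 in GFP-negative cells of day 4 (adjusted p = 0.000248). In GFP-positive cells the change was -0.31 (adjusted p = 0.358). The gate difference was -1.72 ± 0.24 (SE) on day 4 and -1.36 on day 5 (adjusted p = 2.19e-05 and 0.000286), and Dll3 fell by 1.12 from day 4 to day 5 in GFP-negative cells (adjusted p = 0.00412). In GFP-positive cells the change over the same step was -0.77 (95% interval -1.27 to -0.26), without overlap and with an adjusted p just over 0.05, and it passed without day 0 replicate 1.

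Mesoderm markers were also apart between the gates. The summed level of T, Tbx6, Mesp1, Mixl1, Eomes and Msgn1 was 5719 to 8820 in the GFP-negative and 300.4 to 662 in the GFP-positive libraries of day 4, and 2132 to 2464 against 144 to 239 on day 5. All 6 had a mean of at least 10 in GFP-negative cells of day 4, 5 of 6 in GFP-positive cells, and none was at 0 in every library of a group. Their sum had been 2821 to 3177 on day 3, so that it was far smaller in GFP-positive cells of day 4, where Dll3 changed by -0.31. Their part in the gate difference of Dll3 was not tested.

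Of the remaining ligands, Jag2 had 975 to 1253 normalized counts on day 3, 455 to 912 in GFP-negative and 768 to 779.5 in GFP-positive cells of day 4, and 862 to 1307 on day 5. It fell by 0.71 in GFP-negative cells from day 3 (adjusted p = 0.0366) and rose by 0.86 from day 4 to day 5 (adjusted p = 0.0186). The fall was lost without day 3 replicate 1 or 2 or GFP-negative replicate 1 or 3 of day 4 (-0.77 to -0.43, adjusted p 0.053 to 0.228), and the rise without GFP-negative replicate 3 of day 4 or replicate 1 or 3 of day 5 (0.58 to 0.84, adjusted p 0.0598 to 0.134). The change of Jag2 in GFP-positive cells was -0.50 (adjusted p = 0.0969, and 0.0375 without day 0 replicate 1).

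Dll4, the Delta ligand of sprouting endothelium, was close to the counting floor. It had 49.7, 13.2 and 16.3 normalized counts in day 5 GFP-negative and 2.35, 1.69 and 5.46 in GFP-positive libraries, which did not overlap, and it was listed at 0 in day 0 replicate 1. Its gate difference on day 5 was -2.58 (95% interval -4.41 to -0.75, adjusted p = 0.0504, and 0.0181 without day 0 replicate 1). The 8 endothelial markers summed to 1687 to 2437 in GFP-negative and 761 to 917 in GFP-positive cells of day 5, with means of at least 10 for 7 and 4 of them and none at 0 in every library of a group. Kdr, with means of 1174 and 693, made up most of the GFP-positive sum. Each other marker was further apart in proportion, such as Cdh5 at 167 and 6.81. The part of these markers in the level of Dll4 was not tested.

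Dlk1, a Delta-like membrane protein that lacks the receptor-binding DSL motif and is known as a Notch antagonist, was the ligand-related gene called upwards from day 4 to day 5. On day 4 it had 127, 187 and 169 normalized counts in GFP-negative and 126, 125 and 126 in GFP-positive libraries. By day 5 it had 612, 518 and 369 in GFP-negative and 242, 199 and 207 in GFP-positive libraries. The gates did not overlap on either day, but the lowest GFP-negative library of day 4 was within 1 normalized count of the highest GFP-positive one. Dlk1 rose by 1.62 ± 0.20 in GFP-negative cells (SE, adjusted p = 1.2e-05) and by 0.77 in GFP-positive cells (adjusted p = 0.0138), and the gate difference was -0.33 on day 4 and -1.18 on day 5 (adjusted p = 0.321 and 0.000147). The change of that difference was -0.85 (adjusted p = 0.202). The former change was 1.45, under the threshold of a call, without GFP-negative replicate 1 of day 4 or of day 5 (adjusted p = 0.000192 and 0.000185), and the latter rise was 0.69 without GFP-positive replicate 1 of day 5 (adjusted p = 0.0725). Earlier, Dlk1 had 104, 91.2 and 74.5 normalized counts on day 0, 78.1, 69.2 and 76.6 on day 1, 136, 131 and 139.9 on day 2 and 91.7, 73.2 and 59.5 on day 3. It rose by 0.85 from day 1 to day 2 (adjusted p = 0.00442), fell by 0.87 to day 3 (adjusted p = 0.00516), and rose again to day 4 by 1.10 in GFP-negative (adjusted p = 0.000402) and 0.77 in GFP-positive cells (adjusted p = 0.00394). On day 5 the 6 endoderm markers summed to 3559.7 to 4457 in GFP-negative and 172 to 344 in GFP-positive cells, with 6 and 5 of them at a mean of at least 10 and none at 0 in every library of a group. On day 4, where the gate difference of Dlk1 was -0.33 (adjusted p = 0.321), these sums were 2040 to 3334 and 105 to 268. The part of these markers in the level of Dlk1 was not tested.

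**Figure D2:**
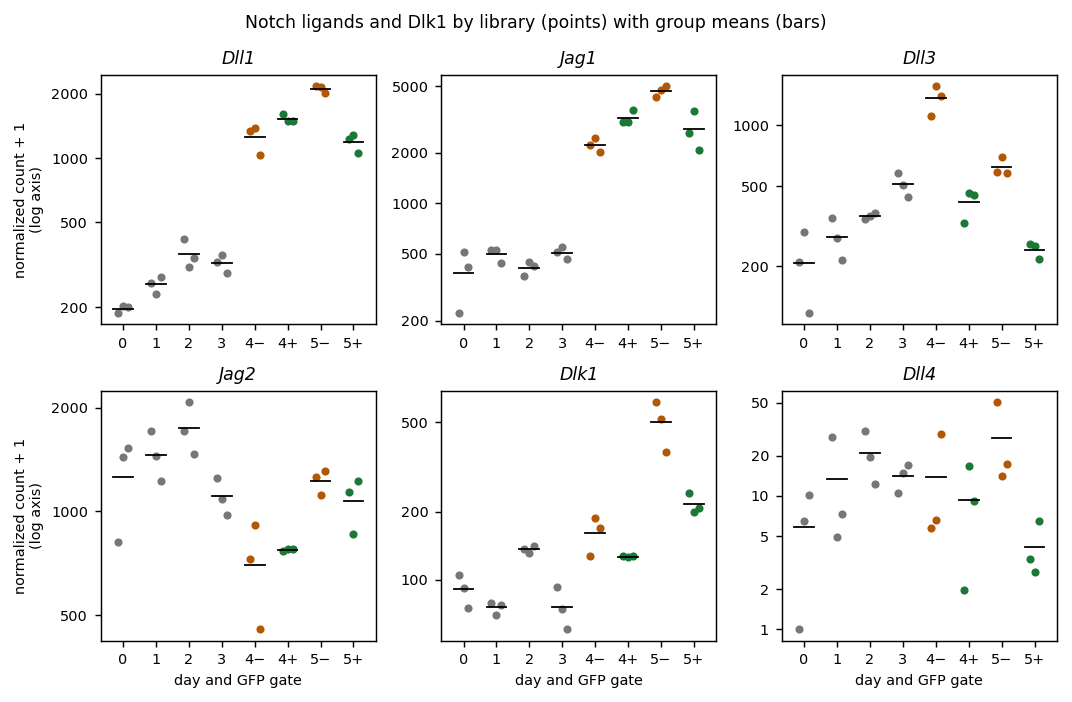
Normalized counts plus 1 (log axis) of 6 ligand genes in each library, by day and GFP gate (+ positive, − negative), with bars at the group means. Dll1 and Jag1 step up at day 4 in both gates, and on day 5 their GFP-negative libraries (2025 to 2179 and 4294 to 5010) lie above the GFP-positive ones, whereas Dll3 is highest in the GFP-negative libraries of day 4.

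The Hes and Hey genes encode the transcriptional repressors that Notch signalling is best known for inducing, and member promoters were searched for the core motif of RBPJ. RBPJ is known to bind TGGGAA within GTGGGAA. Windows from 250 bases before to 50 bases after the start site were taken from the RefSeq promoter table (GRCm38.p6) and read on both strands, and GTGGGAA contains TGGGAA. Of the 33 members 27 matched a promoter in the table, and Hes1, Hes3, Hey1, Heyl, Mfng and Mib1 did not and were not searched. TGGGAA was present in 8 of these 27 genes and in 28.3% of all genes with a promoter (25.6% of 32851 windows). GTGGGAA was present in 5 of 27, Hes5, Hes7, Hey2, Lfng and Psen2, and in 7.25% of all genes (6.38% of windows). The sequences of Hes5, Hes7, Hey2 and Lfng are printed, 5′ to 3′ on the strand of the gene, because these are the Hes, Hey and Fringe genes among the 5 that carry the longer motif. TGGGAA and its reverse complement are in capitals, and each sequence ends before the gene as the deposited coordinates give it. A match is a description of the letters and not evidence of binding.
Hes5, chr4:154960673-154960922, plus strand: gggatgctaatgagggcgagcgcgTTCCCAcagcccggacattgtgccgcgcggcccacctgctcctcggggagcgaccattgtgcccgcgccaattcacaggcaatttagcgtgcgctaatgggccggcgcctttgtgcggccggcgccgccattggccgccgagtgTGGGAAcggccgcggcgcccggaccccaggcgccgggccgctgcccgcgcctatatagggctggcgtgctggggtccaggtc
Hes7, chr11:69120203-69120403, plus strand: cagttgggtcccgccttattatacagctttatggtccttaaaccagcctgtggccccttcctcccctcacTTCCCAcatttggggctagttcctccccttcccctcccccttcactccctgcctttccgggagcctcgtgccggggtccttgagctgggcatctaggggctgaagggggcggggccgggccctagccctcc
Hey2, chr10:30842802-30843033, minus strand: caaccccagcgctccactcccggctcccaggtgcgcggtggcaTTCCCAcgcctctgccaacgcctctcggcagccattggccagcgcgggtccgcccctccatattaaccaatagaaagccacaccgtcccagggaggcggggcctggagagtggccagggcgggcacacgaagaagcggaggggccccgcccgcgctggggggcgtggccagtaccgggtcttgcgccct
Lfng, chr5:140607091-140607319, plus strand: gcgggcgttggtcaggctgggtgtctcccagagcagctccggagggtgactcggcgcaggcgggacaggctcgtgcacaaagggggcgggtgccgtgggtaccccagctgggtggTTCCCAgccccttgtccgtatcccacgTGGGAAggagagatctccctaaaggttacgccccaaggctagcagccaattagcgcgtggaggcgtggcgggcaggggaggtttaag

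The first base of each match, counted from the RefSeq start site, lay at -226 on the opposite strand and -82 on the strand of the gene in Hes5, and at -135 on the opposite strand and -108 on the strand of the gene in Lfng. Hes7 had a match on the opposite strand at -180, and Hey2 had its printed match on the opposite strand at -207 and another on the strand of the gene at -3, across the start site. Both matches of Hes5 carry the longer GTGGGAA, whereas in Lfng the match at -135 does not.

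Hes1, a repressor that holds neural progenitors undifferentiated, was the Hes gene of the GFP-positive gate. It had 983, 979 and 905 normalized counts on day 0, 956, 857 and 866 on day 1, 945, 878 and 852 on day 2, and 776, 866 and 888 on day 3. Day 4 libraries had 1582, 1737 and 1959.6 in the GFP-negative and 3365, 2735 and 2648 in the GFP-positive gate. Day 5 libraries had 2137, 1764 and 1719 (GFP-negative) and 3435, 4055 and 3272 (GFP-positive). All GFP-positive libraries of both days lay above all others, and the 12 libraries of days 0 to 3 lay below all sorted ones. Hes1 rose from day 3 by 1.78 ± 0.12 in GFP-positive (SE, adjusted p = 1.18e-10) and 1.06 ± 0.12 in GFP-negative cells (adjusted p = 1.62e-06). GFP-positive cells exceeded GFP-negative cells by 0.73 and 0.94 on days 4 and 5 (adjusted p = 0.000117 and 4.48e-06), and the change of that difference was 0.21 (adjusted p = 0.798). From day 0 to day 3 it changed by -0.18 (adjusted p = 0.232). Per kilobase of exon, Hes1 was at 1761 in day 5 GFP-positive cells, against 456 for Hes6, 191 for Hes5, 91.2 for Hey1 and 30.5 for Hes3.

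Hes3, expressed in neural progenitors and at the midbrain-hindbrain boundary, had the largest log2-fold-change of any member in the 8 comparisons. It had 31.1, 73.9 and 66.2 normalized counts on day 0, 99.3, 115 and 124 on day 1, 51.8, 32.5 and 34.2 on day 2, and 12.4, 21 and 12 on day 3. Day 4 GFP-negative libraries then had 606, 754 and 874 and GFP-positive libraries 364, 333 and 261. On day 5 GFP-negative libraries had 592, 389 and 475 and GFP-positive libraries 65.9, 56.5 and 57.1. The gates overlapped on neither day, and the day 5 GFP-positive libraries were back within the range of day 0.

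Hes3 rose from day 0 to day 1 by 1.06 (adjusted p = 0.0197), which was 0.68 to 1.04 with adjusted p values of 0.0553 to 0.0833 without day 0 replicate 1 or day 1 replicate 2 or 3. It then fell by 1.51 to day 2 (adjusted p = 0.000744) and by 1.34 to day 3 (adjusted p = 0.0029), a net fall of 1.80 ± 0.28 from day 0 (SE, adjusted p = 2.54e-05). The call of the first of these falls was lost without any replicate of day 1 or without day 2 replicate 2 or 3 (-1.60 to -1.39, adjusted p 0.00189 to 0.0061). The rise from day 3 to day 4 was 5.56 ± 0.28 in GFP-negative (adjusted p = 2.77e-11) and 4.35 ± 0.28 in GFP-positive cells (adjusted p = 9.52e-11). In GFP-positive cells Hes3 then fell by 2.39 ± 0.28 to day 5 (adjusted p = 6.46e-06). The gate difference was -1.22 on day 4 and -2.98 on day 5 (adjusted p = 0.0042 and 1.02e-07). The change of that difference was -1.76 ± 0.40 (SE, adjusted p = 0.0302), and leaving out any of 9 of the 12 sorted libraries gave -1.83 to -1.61 with adjusted p values of 0.0512 to 0.102. The libraries whose removal kept it were GFP-negative replicate 3 and GFP-positive replicate 3 of day 4 and GFP-negative replicate 2 of day 5.

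Hes5, the Notch-responsive repressor most used as a readout of the pathway in neural tissue, rose from day 0 to day 3 and from day 3 to day 4 in both gates. It had 29.6, 6.26 and 5.28 normalized counts on day 0, 14.5, 18.3 and 12 on day 1, 33.1, 37.5 and 14.2 on day 2, and 64.1, 74.7 and 38.9 on day 3. On day 4 it had 188, 169.8 and 213 in GFP-negative and 362, 339.6 and 301 in GFP-positive libraries. On day 5 the GFP-negative libraries had 559.8, 423 and 624 and the GFP-positive ones 244, 270.2 and 269. The gates did not overlap on either day and changed order between them, with the GFP-positive libraries above on day 4 and below on day 5.

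Hes5 rose by 2.38 ± 0.43 to day 3 (SE, adjusted p = 0.000118). The call was lost without day 0 replicate 2 or 3 or day 3 replicate 2 (1.96 to 2.19, adjusted p 0.0012 to 0.00128), and without day 0 replicate 1 the rise was 3.11 (adjusted p = 7.74e-08). From day 3 to day 4 it rose by 2.52 in GFP-positive (adjusted p = 6.94e-05) and 1.71 in GFP-negative cells (adjusted p = 0.00682, and 0.000119 without day 0 replicate 1). It rose on to day 5 in GFP-negative cells by 1.48 (adjusted p = 0.0305), which without any library of the comparison but GFP-negative replicate 2 of day 5 was 1.36 to 1.56 with adjusted p values of 0.0582 to 0.117. Its gate difference was 0.81 on day 4 (95% interval -0.08 to 1.71, adjusted p = 0.25) and -1.02 on day 5 (-1.91 to -0.12, adjusted p = 0.125). The change of that difference was -1.83 (adjusted p = 0.204). Without day 0 replicate 1, where Hes5 was at 29.6 against 6.26 and 5.28 in its replicates, these adjusted p values were 0.0456, 0.0121 and 0.0129. Exons of Hes5 share 31.8% of their bases with Gm20421 on the opposite strand.

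Hes7, the clock repressor of presomitic mesoderm, had 15.1 to 22.3 normalized counts on day 0 and 47.2 to 59.7 on day 3. Its exons share 12.9% of their bases with 9130213A22Rik on the opposite strand. It had 89.5 to 136 in GFP-negative and 54.9 to 75.1 in GFP-positive cells of day 4, which did not overlap, and 52.9 to 83.2 in day 5 libraries. Hes7 rose by 1.45 to day 3 (adjusted p = 0.000122), mostly from day 2 to day 3 (1.08, adjusted p = 0.00791), and by 1.09 to day 4 in GFP-negative cells (adjusted p = 0.00506). Without day 0 replicate 1 the first of these was 1.57 (adjusted p = 0.000111) and was called. It was lower in GFP-positive cells of day 4 by 0.80 (adjusted p = 0.041), which fell short without GFP-negative replicate 1 or 2 or GFP-positive replicate 2 or 3 (-0.80 to -0.67, adjusted p 0.103 to 0.168). The mesoderm markers given for Dll3 also had larger sums in GFP-negative than in GFP-positive cells of day 4, and their part in that difference of Hes7 was not tested. On day 5, where these sums were again apart, the gate difference of Hes7 was -0.22 (adjusted p = 0.681).

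Hes6, known to oppose Hes1 and to favour neuronal differentiation, peaked at 1990.4 to 2339 normalized counts on day 2. It rose by 0.98 from day 1 (adjusted p = 0.00274) and fell by 0.88 to day 3 (adjusted p = 0.00789). In GFP-positive cells of day 4 it fell further by 0.72 (adjusted p = 0.011), which was a change of -0.50 without day 3 replicate 1 (adjusted p = 0.0854). Sorted libraries lay between 661 and 1115.

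Hey1 and Hey2, the Hes-related repressors that act in vessels, heart and neural progenitors, followed different courses. Hey1 had 174, 158 and 96.7 normalized counts on day 0, 163, 123 and 135 on day 1, 214, 189 and 217 on day 2, and 556, 490.0 and 447 on day 3. On day 4 it had 481, 539 and 586 in GFP-negative and 481, 363 and 338 in GFP-positive libraries. On day 5 it had 603, 533 and 606 in GFP-negative and 296, 304 and 294 in GFP-positive libraries. The groups of days 0 and 3 did not overlap, and neither did the gates of day 5. Hey1 rose by 1.83 ± 0.18 to day 3 (SE, adjusted p = 6.14e-08), of which 1.26 fell between day 2 and day 3 (adjusted p = 8.92e-05). It was lower in GFP-positive cells on day 5 by 0.96 (adjusted p = 0.000589).

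Hey2 had 79.4, 41.7 and 38.3 normalized counts on day 0, 29.3, 33.9 and 27.1 on day 1, 16, 15 and 18.4 on day 2, and 20.7, 36.5 and 35 on day 3. Day 4 libraries had 68.6, 95.1 and 52.8 in GFP-negative and 73.1, 51.2 and 68.8 in GFP-positive cells. Day 5 libraries had 175, 233 and 181 in GFP-negative and 64.5, 63.8 and 58.1 in GFP-positive cells. The gates overlapped on day 4 and stood well apart on day 5. Hey2 rose to day 4 by 1.07 in GFP-positive (adjusted p = 0.00456) and 1.20 in GFP-negative cells (adjusted p = 0.00394), and again by 1.46 to day 5 in GFP-negative cells (adjusted p = 0.00141).

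The gate difference of Hey2 on day 5 was -1.63 ± 0.28 (SE, adjusted p = 0.000192), and it fell short of a call without GFP-negative replicate 2 or GFP-positive replicate 3 of day 5 (-1.59 to -1.50, adjusted p 0.00149 to 0.00226) and under quantile normalization. The change of the difference from day 4 was -1.50 (adjusted p = 0.0766, and 0.0172 without day 0 replicate 1). Its fall of 0.73 from day 0 to day 3 (adjusted p = 0.0397) was lost without day 0 replicate 1 or day 3 replicate 1 (-0.48 to -0.41, adjusted p 0.205 to 0.223). Heyl was too low to read, with 1.61 to 45.5 normalized counts over all libraries, and its day 5 gate difference was -1.58 (95% interval -3.33 to 0.18, adjusted p = 0.251).

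**Figure D3:**
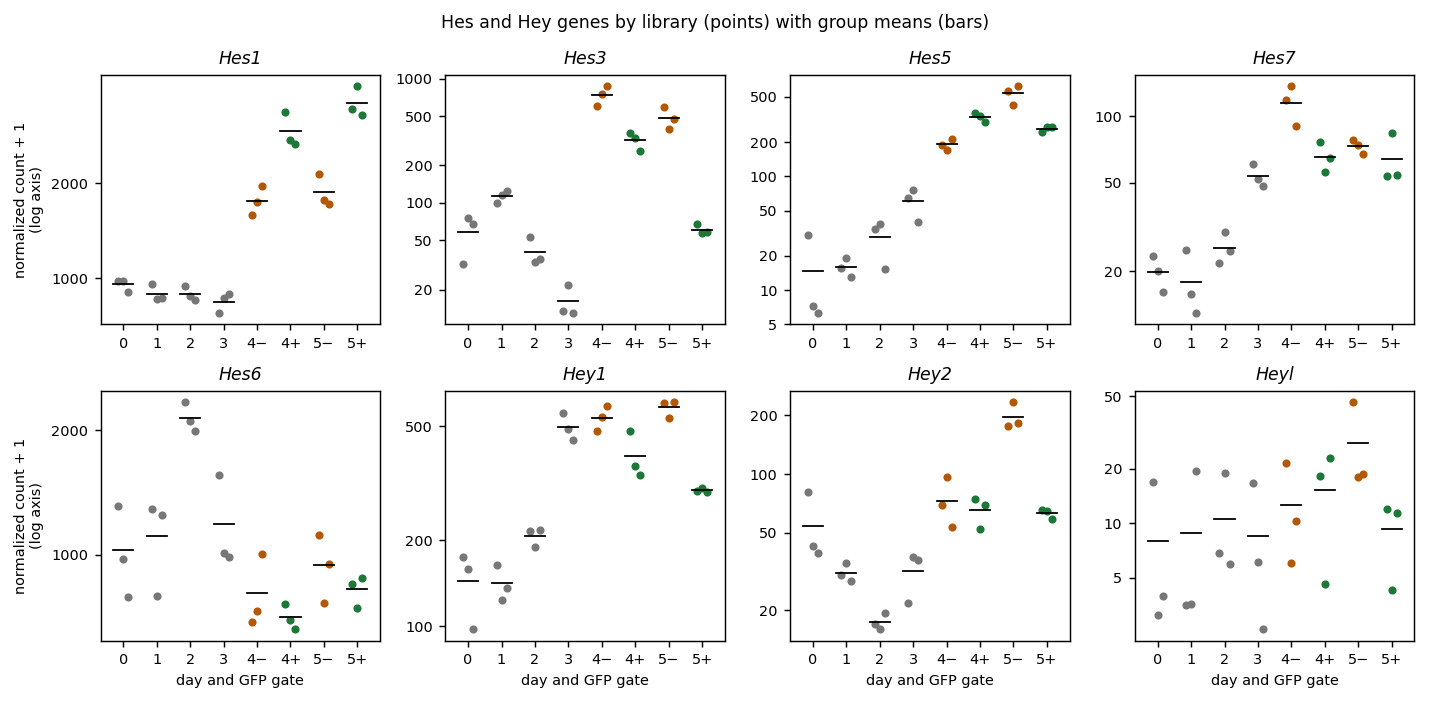
Normalized counts plus 1 (log axis) of the 8 Hes and Hey genes in each library, by day and GFP gate, with bars at the group means. Hes1 is highest in GFP-positive libraries (2648 to 4055), Hes3 drops to 12 to 21 on day 3 before both gates rise, and Hes5 changes the order of its gates between days 4 and 5.

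The Fringe genes encode glycosyltransferases that extend the O-fucose sugars of Notch and so shift its response from Jagged towards Delta ligands. Lfng was called upwards in both gates, and the other Fringes moved less. Lfng (chromosome 5, 140607320 to 140615545, plus strand) had 184, 143 and 171 normalized counts on day 0, 218, 162 and 175 on day 1, 272, 244 and 245 on day 2, and 487, 319.9 and 298 on day 3. On day 4 it had 1714, 1969 and 2129 in GFP-negative and 2925, 2584 and 2642 in GFP-positive libraries. On day 5 the gates had 2440.5, 2295 and 2324 (GFP-negative) and 2291, 2328 and 2001 (GFP-positive). Every sorted library was above every earlier one, the gates were apart on day 4, and they overlapped on day 5.

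Lfng rose by 1.12 ± 0.16 to day 3 (SE, adjusted p = 5.96e-06) and then by 2.91 ± 0.16 in GFP-positive (adjusted p = 5.06e-12) and 2.42 ± 0.16 in GFP-negative cells (adjusted p = 8.4e-10). GFP-positive cells of day 4 exceeded GFP-negative cells by 0.49 (adjusted p = 0.0352), which fell short without any day 4 library but GFP-negative replicate 3 (0.41 to 0.53, adjusted p 0.0629 to 0.153). On day 5 the gate difference was -0.10 (95% interval -0.42 to 0.23). Mfng had 240.2 to 326 normalized counts on day 3, 392 to 543 in the 6 libraries of day 4, 378 to 510.4 in GFP-negative and 270.3 to 307 in GFP-positive cells of day 5. It rose to day 4 by 0.68 and 0.74 in GFP-positive and GFP-negative cells (adjusted p = 0.00245 and 0.00299). The fall of 0.62 in GFP-positive cells to day 5 (adjusted p = 0.0183) and the day 5 gate difference of -0.60 (adjusted p = 0.0155) were each lost without any of 3 libraries (-0.58 to -0.57 and adjusted p 0.0798 to 0.0893 for the former without GFP-positive replicate 1 or 2 of day 4 or 2 of day 5, and -0.59 to -0.49 and adjusted p 0.0504 to 0.0868 for the latter without GFP-negative replicate 1 or 3 or GFP-positive replicate 2 of day 5). Rfng went the other way, from 948, 2262 and 1924 on day 0 to 743 to 875 on day 3, a fall of 1.02 (adjusted p = 0.000219) that became a change of -1.40 without day 0 replicate 1 (adjusted p = 6.31e-10).

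In the nuclear complex, the DNA-binding partner Rbpj fell from day 0 to day 3 while the co-activators Maml1 and Maml3 rose, and all 3 Maml genes rose from day 3 to day 4 in both gates. Rbpj (chromosome 5, 53466152 to 53657362, plus strand) had 15319, 22853 and 19278 normalized counts on day 0 and 13589.7, 19769 and 15603 on day 1. It had 7543, 8411 and 8919 on day 2 and 5901, 6556 and 6484 on day 3. In the sorted cells it had 6747, 6160.4 and 5685 (day 4 GFP-negative), 5642, 6853 and 6812 (day 4 GFP-positive), 5535, 6369.6 and 6479 (day 5 GFP-negative) and 7001, 6269.7 and 6479 (day 5 GFP-positive). The level dropped between day 1 and day 2 and the groups from day 3 onwards overlapped. Rbpj fell by 1.58 ± 0.14 from day 0 to day 3 (SE, adjusted p = 1.19e-08), and its change from day 1 to day 2 was -0.96 (adjusted p = 6.38e-05). Without day 0 replicate 2 the change was -1.45, under the threshold of a call (adjusted p = 1.06e-07), and quantile normalization also ended the call. Even after this fall Rbpj was at 495 per kilobase of exon on day 3, above Maml1 (419.5), Maml3 (93.2) and Maml2 (22.7).

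Maml3, a Mastermind co-activator, had 133, 136 and 133 normalized counts on day 0, 123, 110.2 and 149 on day 1, 338, 285 and 310.4 on day 2, and 934, 1023 and 976 on day 3. Day 4 libraries had 1921, 2069.7 and 2395 in GFP-negative and 1668, 1871 and 1867 in GFP-positive cells. Day 5 libraries had 2041, 2123 and 2168 in GFP-negative and 1667, 1604 and 1869 in GFP-positive cells. Each day from 2 to 4 was above the day before with no overlap, and the replicates lay close together. Maml3 rose by 2.86 ± 0.12 from day 0 to day 3 (SE, adjusted p = 9.4e-14), in steps of 1.29 to day 2 (adjusted p = 1.73e-07) and 1.65 to day 3 (adjusted p = 9.24e-09). It rose again by 1.12 in GFP-negative (adjusted p = 5.92e-07) and 0.88 in GFP-positive cells (adjusted p = 2.71e-06).

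Maml2 had 114 to 175 normalized counts on day 3 and rose to 319 to 363 in GFP-negative and 286 to 492 in GFP-positive cells of day 4, by 1.20 (adjusted p = 0.000312) and 1.36 (adjusted p = 2.24e-05). It went on to 664 to 786 in GFP-positive cells of day 5, a rise of 0.95 (adjusted p = 0.00466), where GFP-negative libraries had 432 to 504. The gate difference of 0.64 on day 5 (adjusted p = 0.0433) was lost when any of the 6 libraries was left out (0.57 to 0.71, adjusted p 0.0593 to 0.134), although the groups did not overlap. Maml1 rose by 0.46 from day 0 to day 3 (adjusted p = 0.00333), or by 0.29 without day 0 replicate 1 (adjusted p = 0.0137), and by 0.46 and 0.47 to day 4 in GFP-positive and GFP-negative cells (adjusted p = 0.00409 and 0.0076), from 2233 to 2388 on day 3 to 2991 to 3486 over all sorted libraries.

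Among the regulators, Nrarp, a feedback inhibitor that binds the Notch intracellular domain, rose from day 3 to day 4 in both gates, and Dtx1, an E3 ubiquitin ligase of the Deltex family, fell. Dtx1 (chromosome 5, 120680202 to 120711927, minus strand) had 1147, 1110.4 and 893 normalized counts on day 0, 1935, 1259 and 1946 on day 1, 3936, 3814 and 3392 on day 2, and 3982, 3390.4 and 3206 on day 3. On day 4 it had 1454, 1277 and 1402 in GFP-negative and 896, 835 and 635 in GFP-positive libraries. On day 5 it had 524, 432 and 434 in GFP-negative and 484, 452 and 387 in GFP-positive libraries. It formed a peak on days 2 and 3, fell in both gates, and the gates that were apart on day 4 overlapped on day 5.

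Dtx1 rose by 1.75 ± 0.16 from day 0 to day 3 (SE, adjusted p = 2.37e-08), with 1.14 of it between day 1 and day 2 (adjusted p = 5.17e-05). It fell to day 4 by 2.17 ± 0.16 in GFP-positive (adjusted p = 9.1e-10) and 1.35 ± 0.16 in GFP-negative cells (adjusted p = 4.45e-06), and from day 4 to day 5 by 1.57 in GFP-negative (adjusted p = 1.91e-06) and 0.83 in GFP-positive cells (adjusted p = 0.00165). The gate difference on day 4 was -0.82 (adjusted p = 0.00105). Pluripotency markers, which summed to 14155 to 17065 in GFP-negative and 1299.9 to 2618 in GFP-positive cells of day 4 with all 7 at a mean of at least 10 in both gates, were also apart on that day. Their sums were smaller on day 3 than on day 0, while Dtx1 rose, and their part in the level of Dtx1 was not tested.

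Nrarp (chromosome 2, 25180758 to 25183339, plus strand) had 191 to 244 normalized counts on day 0, 356 to 365 on day 3, 833 to 1184 in GFP-negative and 787 to 860.1 in GFP-positive cells of day 4, and 1499 to 1538 and 1113 to 1270.0 on day 5. It rose by 0.73 to day 3 (adjusted p = 0.000233) and by 1.49 and 1.20 to day 4 in GFP-negative and GFP-positive cells (adjusted p = 1.67e-07 and 5.44e-07). A further rise of 0.57 and 0.54 to day 5 (adjusted p = 0.01 and 0.0155) was lost without GFP-negative replicate 1 of day 4 for the former (0.43, adjusted p = 0.0772) and without GFP-positive replicate 3 of day 4 or 2 or 3 of day 5 for the latter (0.49 to 0.51, adjusted p 0.0592 to 0.0687). Of the exon bases of Nrarp 79.4% are shared with Gm38287 on the opposite strand, so reads of these genes may not have been told apart.

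Mib1, the E3 ligase that drives endocytosis of ligands in the signal-sending cell, had 4603 to 6208 normalized counts on day 3 and 7304 to 9091 in GFP-positive cells of day 4, a rise of 0.59 (adjusted p = 0.0197) that was lost without day 3 replicate 1 or GFP-positive replicate 2 or 3 (0.45 to 0.55, adjusted p 0.0669 to 0.107). Numb, an endocytic adaptor that antagonises Notch, rose by 0.50 to day 3 (adjusted p = 0.0188), which was 0.18 without day 0 replicate 1 (adjusted p = 0.103) and 0.48 without day 3 replicate 1 (adjusted p = 0.0504). Its relative Numbl lay between 887 and 1936 over all libraries and passed in none of the main comparisons.

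For the proteases, Adam10, which makes the first cut in the ligand-bound receptor, rose from day 3 to day 4 in both gates. It had 891 to 1322 normalized counts on day 3, 2105 to 2551 in GFP-negative and 2608 to 2926 in GFP-positive cells of day 4, and 3021 to 3868 over the libraries of day 5. The rises to day 4 were 1.27 ± 0.13 in GFP-positive (SE, adjusted p = 1.1e-07) and 0.98 ± 0.13 in GFP-negative cells (adjusted p = 1.53e-05), and a rise of 0.60 to day 5 followed in GFP-negative cells (adjusted p = 0.0049). Psen2, a catalytic subunit of gamma-secretase, rose by 0.56 to day 3 (adjusted p = 0.00212). It was lower by 0.53 in GFP-positive cells of day 5 (adjusted p = 0.00959), where the libraries had 243 to 252 against 334 to 392, and that difference was -0.46 without GFP-negative replicate 1 (adjusted p = 0.0546). Ncstn, the gamma-secretase subunit that holds the substrate, went from 1882 to 3021 on day 0 to 3321 to 3852 in GFP-positive cells of day 5 and passed in none of the comparisons.

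**Figure D4:**
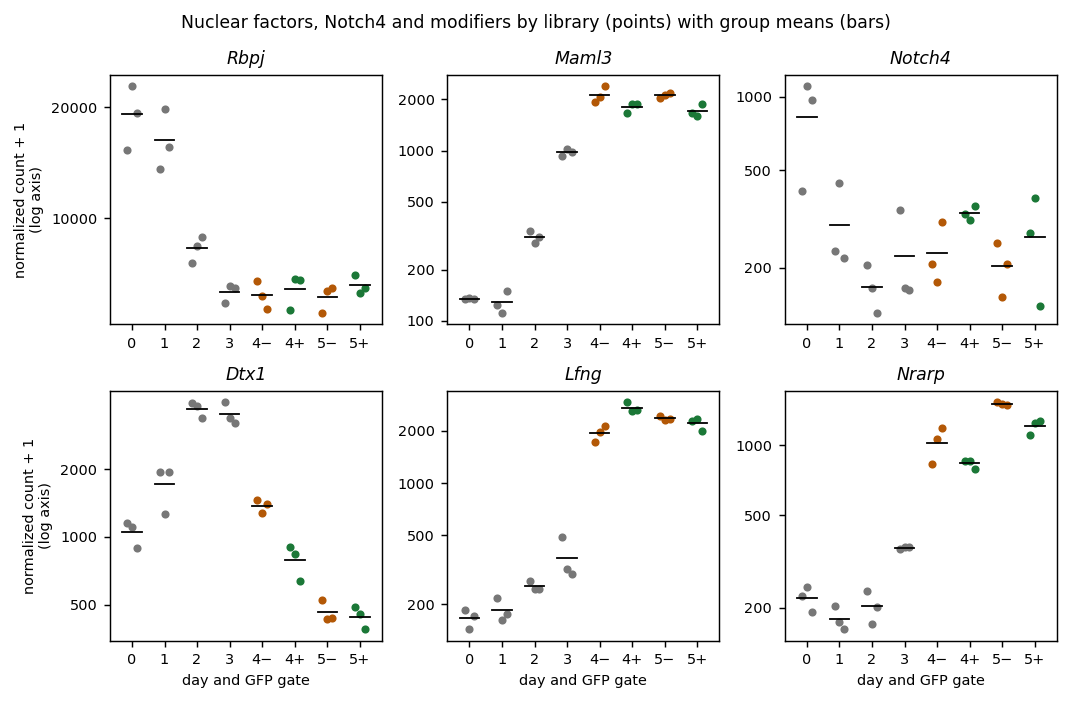
Normalized counts plus 1 (log axis) of Rbpj, Maml3, Notch4, Dtx1, Lfng and Nrarp in each library, by day and GFP gate, with bars at the group means. Rbpj falls between days 1 and 2 and lies between 5535 and 7001 from day 3 on, Maml3 climbs from 110 to 149 on day 1 to 1604 to 2395 in sorted cells, and Dtx1 peaks on days 2 and 3.

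Set side by side, the estimated gate difference moved towards the GFP-negative gate from day 4 to day 5 in 24 of the 33 members (72.7%, against 51.9% of all genes tested). Among them were 5 of 6 ligands and 6 of 8 Hes and Hey genes. This is a count of signs with no threshold, and 3 members passed an adjusted p under 0.05. The median difference of the 6 ligands was -0.06 on day 4 and -1.01 on day 5, and that of the 8 Hes and Hey genes -0.16 and -0.99. For the 4 receptors the medians were 0.33 and 0.00, for the 4 genes of the nuclear complex 0.02 and 0.08, for the 5 regulators 0.07 and -0.07, and for the 3 proteases 0.17 and -0.04. For the 3 Fringe genes they were 0.09 and -0.10. These medians over few genes were not tested, and the tested changes of single genes are those of Dll1, Jag1 and Hes3 above. The gate comparisons of the 2 days use different libraries.

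**Figure D5:**
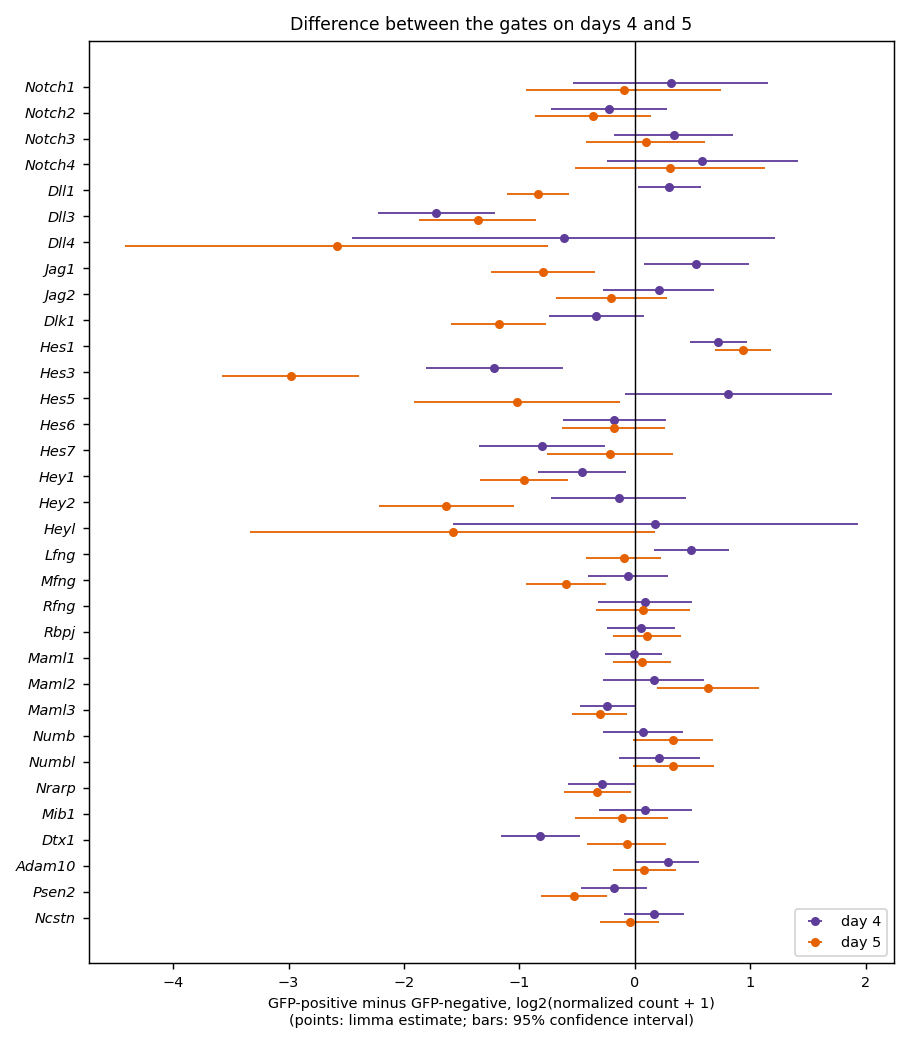
Difference between GFP-positive and GFP-negative cells in log2(normalized count + 1) for the 33 genes on day 4 (purple) and day 5 (orange), as limma estimates with 95% confidence intervals. Hes1 lies above 0 on both days (0.73 and 0.94), Dll3 and Hes3 lie below 0 on both, and Dll1 and Jag1 change from 0.30 and 0.53 on day 4 to -0.84 and -0.79 on day 5.

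Beyond the members, 42 other genes of the pathway were read in the same fit, of which 41 passed the filter. They include other subunits of gamma-secretase, proteases, glycosyltransferases, ubiquitin ligases, co-repressors and co-activators, along with Hes2, Epn1 and a few more genes outside these classes. From day 0 to day 3, 2 were called upwards and 2 downwards, and 10 rose and 9 fell at an adjusted p under 0.05. These are 9.76% and 46.3% of the 41, against 12.0% and 43.6% of all genes. Aph1b, a gamma-secretase subunit, rose by 2.10 and Dtx4, another Deltex ligase, by 1.94, whereas Kat2b, an acetyltransferase, fell by 2.38 and Mib2, a relative of Mib1, by 1.75 (adjusted p = 6.19e-05, 1.76e-08, 1.54e-08 and 2.86e-07). From day 3 to day 4, 8 rose and 7 fell in GFP-positive cells, with Kat2b (-2.34) and Lnx1 (-2.41), a ligase of Numb, called downwards, and 2 rose and 4 fell in GFP-negative cells with 0 called by limma (12 at an unadjusted p under 0.05). The shares called were 4.88% and 0%, against 10.7% and 2.88% of all genes. The shares passing an adjusted p of 0.05 were 36.6% and 14.6%, against 37.9% and 18.5% of all genes.

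Between the gates, 4 of these other genes were higher and 5 lower in GFP-positive cells on day 4, and 3 were higher and 2 lower on day 5. These are 22% and 12.2% of the 41, against 15.7% and 16.0% of all genes. Tle2, a Groucho co-repressor that works with Hes proteins, was the only one called, by -3.03 on day 5 (adjusted p = 3.46e-05). That is 2.44% of the 41, where 5.01% of all genes were called. From day 4 to day 5, 1 rose and 1 fell in GFP-positive and 2 rose and 3 fell in GFP-negative cells (4.88% and 12.2%, against 9.80% and 10.2% of all genes), and for the change of the gate difference 0 passed an adjusted p of 0.05 in limma, and 6 had an unadjusted p under 0.05.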

How the data were processed

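RNA-seq libraries from 8 groups of 3 samples were used, grouped by the day and GFP gate in the labels. The authors quantified reads with kallisto (0.43.1, per the submitters' processing notes) and deposited DESeq2-normalized estimated counts per gene, a signal on a linear scale. The deposited table also holds the authors' own calls, which were not used. The strand setting of the counting is not given in the sources used here. Whole reads could not be recovered: in a library, 45.4% to 76.5% of the lowest values fell within 0.1 of a multiple of what 1 read is worth, so no count test was run. The fit was limma (3.58.1, R 4.3.3) with a mean-variance trend on log2(value + 1), in 1 model over all 24 libraries, with Benjamini-Hochberg adjustment within each comparison over the 21005 genes that reached 10 in 3 or more libraries. The fit was tested on simulated data. A fold change on this scale understates changes of low genes. The labels do not say whether replicates came from separate differentiations beyond calling them biological triplicates, so p-values measure the spread between these samples.

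The members and gene lists were chosen with earlier results of these data known. Genes called in any comparison are given by library, with a few groups as ranges, and the other members by range. Levels per kilobase divide group means by the union of exons in GENCODE M21 (mm10). All 33 members matched it by identifier, start and end. Promoters came from RefSeq (GRCm38.p6). Alternatives were pseudocounts of 0.5 and 5, no filter, a filter of 50, quantile normalization, no trend, the replicate number as a block, only the groups compared, and each library left out. Figures were drawn with matplotlib 3.10.9 (Python 3.11.15, numpy 2.4.6).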

Additional observations from a re-analysis of the deposited data

Results flagged for a closer look

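The difference between the gates changed from day 4 to day 5 in 3 members by the interaction term of the limma fit (adjusted p under 0.05). For Dll1 the GFP-positive minus GFP-negative difference went from 0.30 to -0.84, a change of -1.14 (adjusted p = 0.00206). For Jag1 it went from 0.53 to -0.79, a change of -1.33 (adjusted p = 0.0342). For Hes3 it went from -1.22 to -2.98, a change of -1.76 (adjusted p = 0.0302). Jag1 no longer passed without any of 11 sorted libraries, and Hes3 without any of 9. Dll1 passed whichever sorted library was left out.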

How the results depend on the processing

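Of the single-gene values under the alternatives, 2038 kept their direction and their side of the threshold, 145 lost it, 28 gained it and 4 turned direction. The 4 were Notch1 from day 0 to day 3 (0.03), which was -0.84 without day 0 replicate 1, -0.00555 without day 3 replicate 2 and -0.00212 without day 3 replicate 3, and Notch3 (-0.15), which was 0.21 without day 0 replicate 2. A fit of only the groups compared, with fewer samples behind the spread, called 2 members from day 0 to day 3, 0 and 1 between the gates of days 4 and 5, 0 and 1 from day 4 to day 5 in GFP-positive and GFP-negative cells, and 1 for the change of the gate difference. At an adjusted p under 0.05 it passed 10 members between the gates of day 4, 10 from day 4 to day 5 in GFP-positive cells, and 6 for the change of the gate difference. Its calls no longer included Notch4, Hes3, Hes5, Hey1 and Rbpj from day 0 to day 3, Dll3 between the gates of day 4, Hey2 between those of day 5, and Hes3 (GFP-positive) and Dlk1 (GFP-negative) from day 4 to day 5. Quantile normalization called 1 member between the gates of day 5. Shares of all genes are not given for a fit of only the groups compared, for quantile normalization or at an unadjusted p. Nor are they given for a left-out library other than day 0 replicate 1, so member counts there have no background. Leaving out 1 library at a time gave 1 to 2 calls between the gates of day 5 and 1 to 2 from day 4 to day 5 in GFP-negative cells, 4 to 10 members with an adjusted p under 0.05 from day 4 to day 5 in GFP-positive cells, and 1 to 5 for the change of the gate difference. Over single values of Notch1 and Notch3 from day 0 to day 3 the range without 1 library was -0.84 to 0.49 and -0.63 to 0.21. Replicate numbers did not pair the samples across the 8 groups: the mean correlation of deviations between samples of the same number was -0.00054, and 9 of 24 libraries correlated best with their own number. Between the gates of a day, same-number correlations were -0.108 to 0.0227 on day 4 and -0.075 to 0.147 on day 5. The study sorted its samples of these days into both gates, so the gates of a day may share organoids. The fit treats them as independent, and neither the mean over all groups nor a block by number tests such a pairing. With the replicate number as a block, 6 members in place of 7 were called from day 0 to day 3, all 6 shared, 19 passed an adjusted p under 0.05 there, 7 did so from day 4 to day 5 in GFP-positive cells, and the other counts were equal. Where no cause is given, the cause was not tested. Depth limits Dll4 and Heyl, which lie within a few reads of 0 in many libraries.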
